A study of Mus musculus with 10 samples.

Results

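The xenobiotic enzyme genes compared here belong to 4 families: cytochromes P450 of families 1 to 4 (Cyp1 to Cyp4), glutathione S-transferases (Gst), UDP-glucuronosyltransferases (Ugt) and sulfotransferases (Sult). Members were all genes of the array annotation whose symbol carries one of these family names, each represented by its single-symbol probe set with the highest mean. The rule found 97 of 18193 genes, namely 56 Cyp, 20 Gst, 13 Sult and 8 Ugt genes, of which 2, Cyp2d13 and Cyp4f41-ps, are annotated as transcribed pseudogenes. A further 9 probe sets list several genes of these families, 3 of them 8 genes of the Ugt1a locus each, and were not used, so no Ugt1 gene is a member.

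Laser-dissected colon tumours were profiled on Affymetrix mouse arrays, 1 array per tumour. The KO group is 5 tumours from 3 mice of the genotype vil-Cre-Bcl9-/-/Bcl9l-/-, and the WT group is 5 tumours from 2 wildtype mice. Every mouse was of a mixed 129SvEv/C57BL/6/DBA/2 background, was 6 to 8 weeks old at the start, and was given a single dose of the colon carcinogen dimethylhydrazine (44 mg/kg), followed by 7 days on dextran sulfate sodium at 2%, which injures the colon lining. Villin-driven Cre acts in intestinal epithelium, and Bcl9 and Bcl9l are co-factors of beta-catenin. KO tumours 2 and 6 came from mouse 02, 9 and 11 from mouse 04 and 7 from mouse 99, whereas WT tumours 1, 3, 12 and 13 came from mouse 72 and 8 from mouse 82. The labels state that dissected samples of a mouse were pooled, yet list several arrays for single mice; each array was taken as a tumour. The labels do not say how the strains were distributed between the mice.

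These enzymes handle foreign and endogenous lipophilic compounds in successive steps. Cytochromes P450 oxidise them, and transferases then attach glutathione, glucuronic acid or sulfate, which makes the products easier to export. Liver and gut are the main sites. Dimethylhydrazine itself becomes a carcinogen through oxidation, in which the liver enzyme Cyp2e1 takes part.

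Values are log2 signals, so a difference of 1 is a 2-fold change. Signals of different probe sets cannot be set against each other as transcript levels. The epithelial markers Epcam, Cdh1, Krt8, Krt18, Krt19, Vil1 and Cldn7 averaged 12.78 to 12.97 log2 in KO and 12.34 to 12.90 in WT tumours, so epithelial RNA was present on every array. Bcl9 and Bcl9l themselves, each by its highest probe set, had differences of 0.21 and 0.13 log2, KO minus WT, with overlapping groups (limma, adjusted p = 0.410 and 0.620). The position of these probe sets relative to the deleted part is not given, so they check nothing, and groups are named as labelled. In dissected tissue, fewer cells of a type and less RNA per cell cannot be told apart.

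Of the 97 members, 35 had a mean signal at or above 5.82 log2, the 40th percentile of all probe sets, and were tested. They were 12 of 56 Cyp, 17 of 20 Gst, 4 of 13 Sult and 2 of 8 Ugt genes. The members next to this limit were Sult4a1 at 5.85, which was tested, and Sult2b1 at 5.76, which was not. The plot of group means shows that most Cyp genes lay under the limit and most Gst genes above it.

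**Figure D1:**
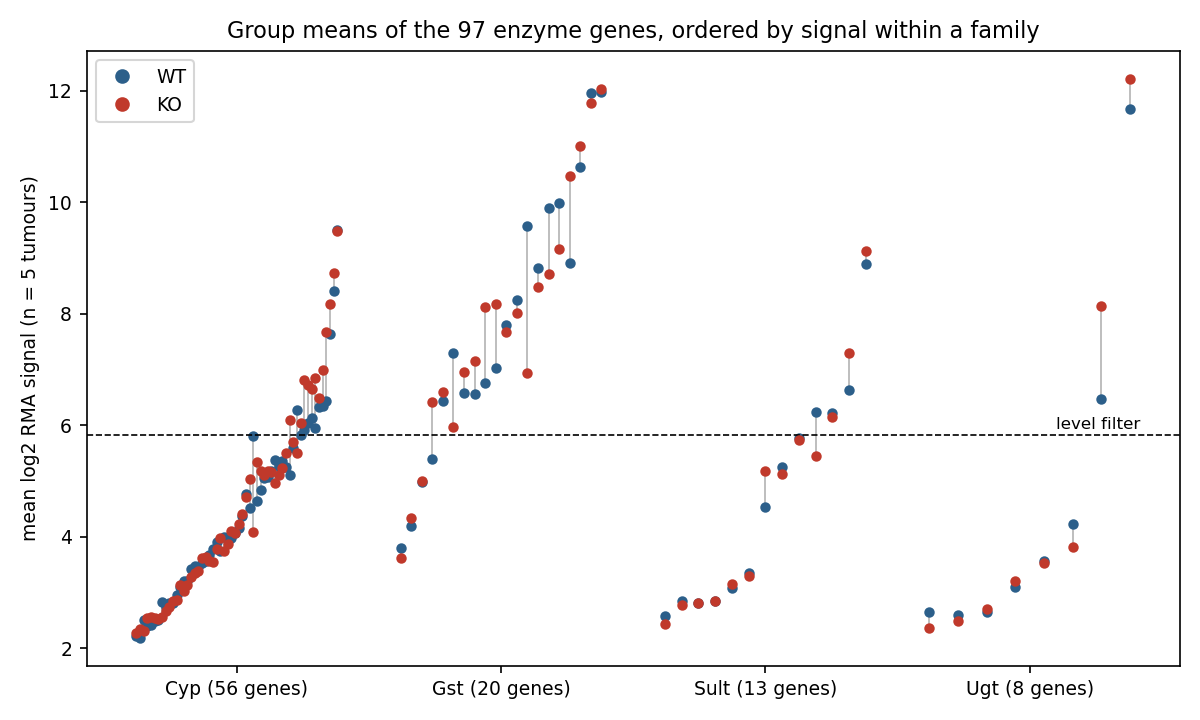
Mean log2 RMA signal of each of the 97 genes in WT tumours (blue) and KO tumours (red), n = 5 tumours each, ordered by signal within each family, with the level filter at 5.82 log2 as a dashed line. Of 56 Cyp genes 12 lie above the filter, against 17 of 20 Gst genes.

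Against WT tumours, 5 of the 35 tested members changed in KO tumours. The mu-class transferase genes Gstm7 and Gstm6 fell, and Gstm3 of the same class, the theta-class transferase gene Gstt2 and the cytochrome gene Cyp2j9 rose. The test was limma with the mouse as a random block, and p-values were adjusted over 12250 genes by the Benjamini-Hochberg method at a threshold of 0.05. The share called was 14.3% among the members and 7.09% among all genes tested. By direction, 3 of 35 rose, where 4.16% of all genes rose, and 2 fell, where 2.93% of all genes fell. An unadjusted p under 0.05 was reached by 14 members, or 40%, against 22.4% of all genes. In 3 members the KO and WT tumours did not overlap, which is 8.57% against a background of 9.12%. The median difference of the tested members was 0.31 log2, against 0.03 over all genes tested, and 23 of 35 differences were positive.

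**Figure D2:**
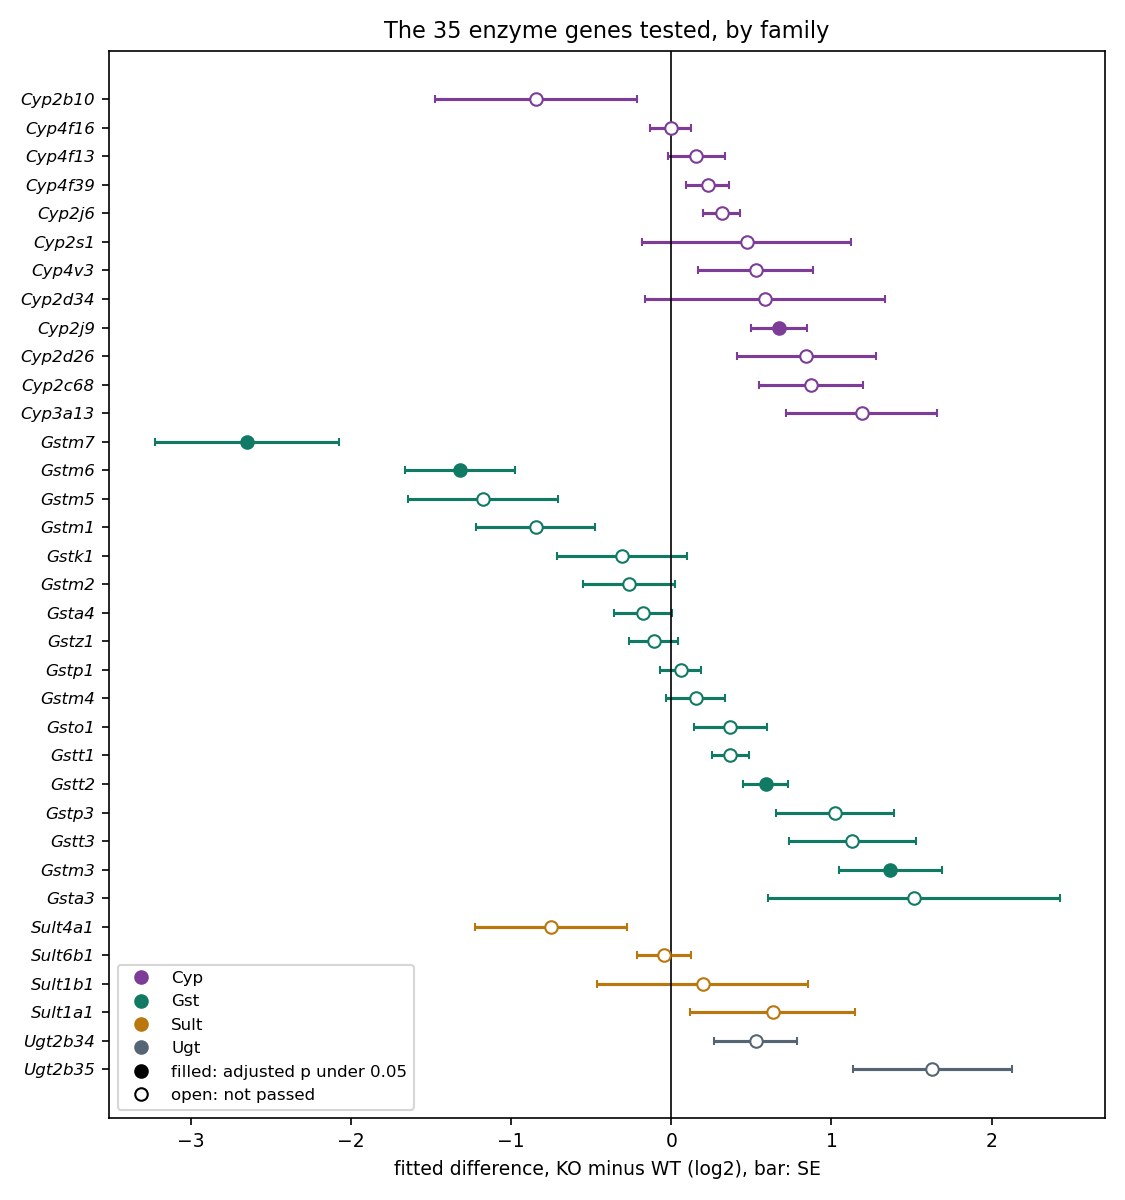
Fitted difference, KO minus WT, in log2 with its SE for each of the 35 genes tested, ordered within the Cyp, Gst, Sult and Ugt families. Filled points mark the 5 genes with an adjusted p under 0.05, of which Gstm7 lies lowest at −2.65 and Gstm3 highest at 1.37.

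The glutathione transferases, 17 of the 35 genes tested, held 4 of the 5 changes (23.5% of the 17, against 7.09% of all genes). Of these changes 3 were in the mu class, enzymes that join glutathione to electrophiles. Its 7 genes lie next to each other on chromosome 3 in the order Gstm5, Gstm7, Gstm6, Gstm3, Gstm2, Gstm1 and Gstm4 in the RefSeq annotation, and all 7 were tested. Genes of this row differed in opposite directions. Shown are 3 start regions that hold motif matches. They are of Gstm7, which fell, of Gstm3, which rose and lies beyond Gstm6, and of Gstm5 at the row's end, which did not pass. Those of Gstm6, which fell, hold no match and are not shown. Each runs from 250 bases before to 50 after a RefSeq start (GRCm38.p6). Gstm7 lies at chr3:107931565-107931864 on the minus strand, Gstm3 at chr3:107969125-107969424 on the minus strand and Gstm5 at chr3:107895604-107895903 on the plus strand. Capitals mark matches on either strand to TGACNNNGC, the core of the antioxidant response element, to GCGTG, the core bound by the aryl hydrocarbon receptor, or to CTTTGAA or CTTTGAT, which TCF/LEF factors bind.
Gstm7: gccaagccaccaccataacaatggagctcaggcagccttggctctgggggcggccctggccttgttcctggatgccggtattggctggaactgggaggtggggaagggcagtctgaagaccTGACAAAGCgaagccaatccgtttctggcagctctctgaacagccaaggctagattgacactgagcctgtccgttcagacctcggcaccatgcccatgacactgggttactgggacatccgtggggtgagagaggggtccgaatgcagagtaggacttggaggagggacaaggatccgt
Gstm3: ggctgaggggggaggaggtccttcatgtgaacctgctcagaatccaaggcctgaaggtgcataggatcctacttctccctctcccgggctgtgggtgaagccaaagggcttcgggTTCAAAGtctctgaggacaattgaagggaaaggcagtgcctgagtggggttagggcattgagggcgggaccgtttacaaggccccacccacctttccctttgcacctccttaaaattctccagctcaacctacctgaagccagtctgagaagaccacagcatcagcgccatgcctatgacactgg
Gstm5: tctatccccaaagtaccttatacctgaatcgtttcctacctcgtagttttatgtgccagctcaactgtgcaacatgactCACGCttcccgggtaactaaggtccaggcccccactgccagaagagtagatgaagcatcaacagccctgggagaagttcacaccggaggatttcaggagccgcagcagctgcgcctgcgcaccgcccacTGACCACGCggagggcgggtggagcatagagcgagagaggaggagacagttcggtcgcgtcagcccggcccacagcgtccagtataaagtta

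The Gstm7 window holds TGACNNNGC starting 129 bases before the start used. The other Gstm7 window, at chr3:107931768-107932067, belongs to a RefSeq start further upstream and holds none of the 4 motifs. The match lies after that other start, beyond the end of its window. The Gstm3 window holds CTTTGAA on the opposite strand, starting 135 bases before. In Gstm5, TGACNNNGC starts 42 bases before and overlaps a GCGTG match on the opposite strand, and another GCGTG starts 171 bases before. The windows of Gstm6, Gstm2 and Gstm4 hold none of the 4 motifs, and both Gstm1 windows hold GCGTG. Over all 32851 RefSeq windows of this length, TGACNNNGC is found in 12.4%, GCGTG in 32.4%, and CTTTGAA or CTTTGAT in 8.65%. Among the 97 windows of the 80 members with an entry the shares are 8.25%, 22.7% and 12.4%. In the 12 windows of the mu class they are 16.7%, 25% and 8.33%. These are matches of letters only.

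Gstm7 stood at 11.22 log2 in WT tumour 1, 7.84 in tumour 12, 9.83 in tumour 13, 8.84 in tumour 3 and 10.11 in tumour 8. In KO tumours 11, 2, 6, 7 and 9 it stood at 7.75, 6.67, 6.76, 6.48 and 7.04. Every KO tumour was below every WT tumour, with WT tumour 12 only just above KO tumour 11. The mean was 6.94 ± 0.50 in KO and 9.57 ± 1.29 in WT (SD, n = 5 tumours each), a fitted 6.27-fold lower level (difference −2.65 ± 0.58, SE, limma adjusted p = 0.0217). The call was lost without KO tumour 6 (−2.63, adjusted p = 0.0643), without mouse 02 (−2.50, 0.0962) and with the 3′ minus 5′ difference of control probe sets, a measure of RNA quality, as a covariate (−2.67, 0.0539). A weaker Gstm7 probe set, with a mean signal of 3.98, differed by −0.05 log2.

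Gstm6 was at 8.31, 6.45, 7.38, 7.06 and 7.24 log2 in WT tumours 1, 12, 13, 3 and 8, and at 6.56, 5.85, 5.86, 5.35 and 6.25 in KO tumours 11, 2, 6, 7 and 9. The groups overlapped only through WT tumour 12 and KO tumour 11, as the plot of single tumours shows. The fitted level was 2.50-fold lower in KO (5.97 ± 0.45 against 7.29 ± 0.67, SD, n = 5 tumours each, limma adjusted p = 0.0442). It did not pass without KO tumour 2, 6 or 7 or WT tumour 1, 13, 3 or 8, with adjusted p-values of 0.0586 to 0.109.

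Gstm3 went the other way. It was at 8.49, 7.57, 8.02, 7.93 and 8.61 log2 in KO tumours 11, 2, 6, 7 and 9, and at 6.48, 6.09, 6.96, 7.74 and 6.54 in WT tumours 1, 12, 13, 3 and 8. WT tumour 3 alone reached into the KO range, above KO tumour 2. The fitted level was 2.58-fold higher in KO (8.12 ± 0.43 against 6.76 ± 0.63, SD, n = 5 tumours each, limma adjusted p = 0.0299). It did not pass without KO tumour 11 or 6 or WT tumour 1 or 8 (adjusted p = 0.0586 to 0.0762). The probe set used can share sequence with related genes, and without such probe sets Gstm3 fell below the level limit; its other probe set, with a mean of 5.58, had a difference of 0.64 log2 and overlapping groups.

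**Figure D3:**
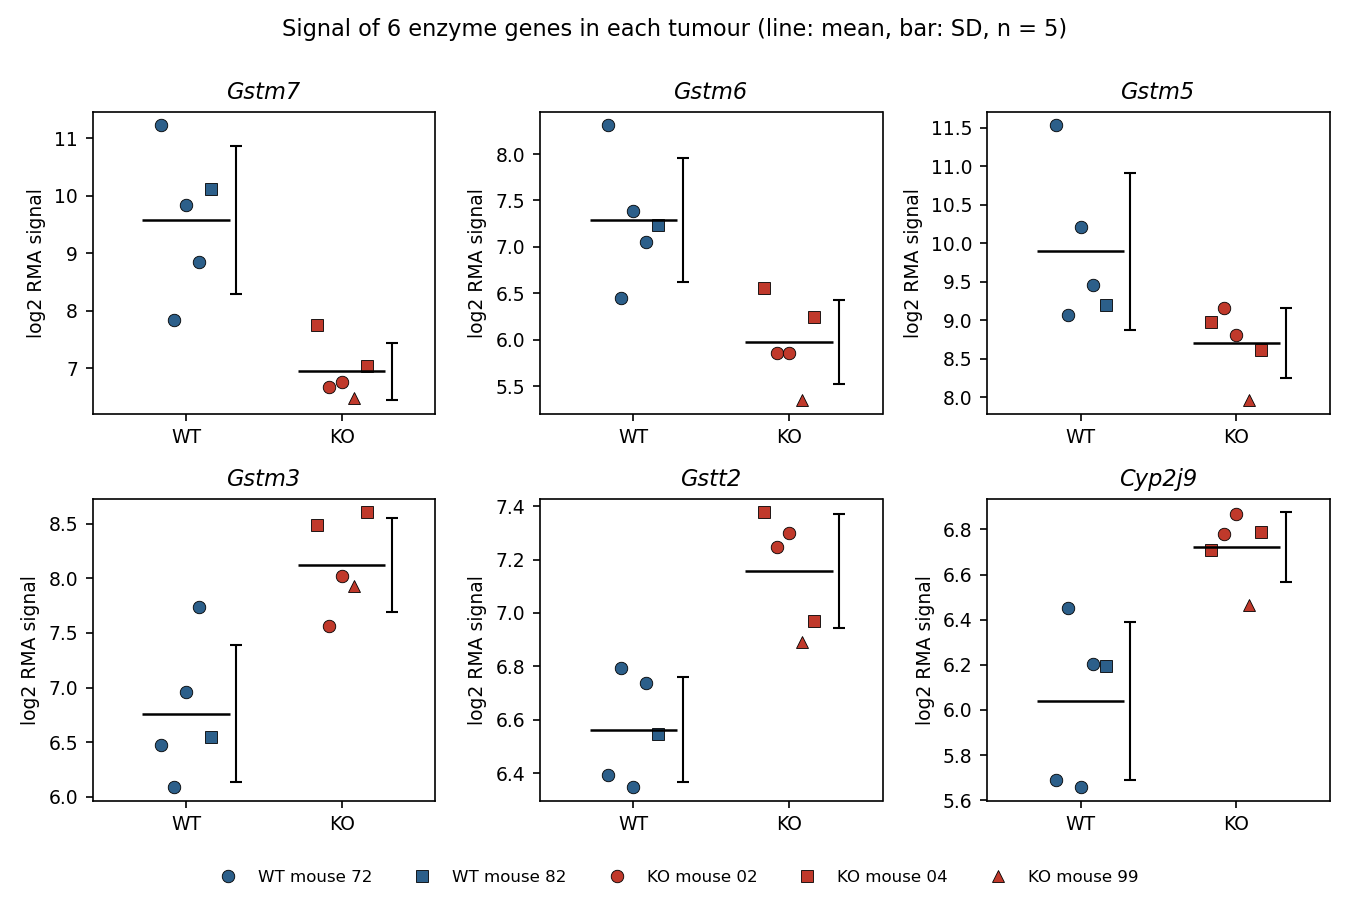
Log2 RMA signal of Gstm7, Gstm6, Gstm5, Gstm3, Gstt2 and Cyp2j9 in each WT tumour (blue) and KO tumour (red), with the marker shape giving the mouse, the line the mean and the bar the SD (n = 5 tumours). Each panel has its own axis. The groups do not overlap for Gstm7, Gstt2 and Cyp2j9.

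The remaining mu-class genes did not pass. Gstm5 was at 11.53, 9.07, 10.21, 9.46 and 9.20 log2 in WT tumours 1, 12, 13, 3 and 8, against 8.98, 9.16, 8.80, 7.97 and 8.61 in KO tumours 11, 2, 6, 7 and 9. Only KO tumour 2 rose above the lowest WT tumour, number 12, and the difference was −1.18 ± 0.47 (SE, adjusted p = 0.166). Gstm1 had a difference of −0.85 (adjusted p = 0.210). WT tumour 12, at 8.65, was apart from the other WT tumours at 10.14 to 10.67, and without it the Gstm1 difference was −1.17 and passed (adjusted p = 0.0135). A second Gstm1 probe set, with a mean of 8.97, differed by −0.89. Gstm2 and Gstm4 differed by −0.26 and 0.15 log2. The row therefore held differences from −2.65 to 1.37 log2 among neighbours, with WT tumour 1 highest for Gstm5, Gstm7, Gstm6, Gstm1 and Gstm4. Mu-class genes are similar in sequence, and a probe set may take up signal of a near copy.

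**Figure D4:**
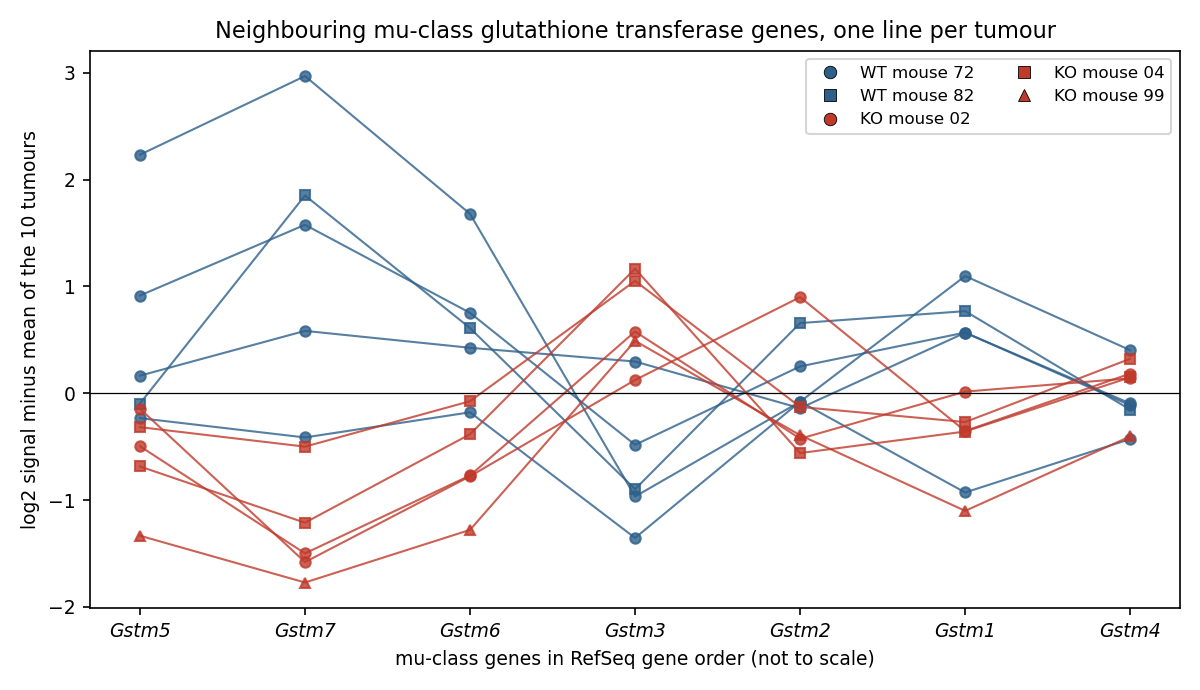
Log2 signal minus the mean of the 10 tumours for the 7 mu-class genes in their RefSeq order on chromosome 3, with a line for each WT tumour (blue) and KO tumour (red) and the marker shape giving the mouse. Lines of KO tumours run below those of most WT tumours at Gstm5, Gstm7 and Gstm6 and above most of them at Gstm3.

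The theta class, enzymes that act on small halogenated compounds and peroxides, lies in another row of neighbours, Gstt3, Gstt1, Gstt4 and Gstt2 on chromosome 10. Gstt2 was at 7.38, 7.25, 7.30, 6.89 and 6.97 log2 in KO tumours 11, 2, 6, 7 and 9, and at 6.40, 6.79, 6.35, 6.74 and 6.55 in WT tumours 1, 12, 13, 3 and 8. All KO tumours were above all WT tumours, KO tumour 7 by the least. The difference was 0.59 ± 0.14 log2 (SE), a 1.51-fold rise (limma adjusted p = 0.0319). It did not pass without KO tumour 11, 2 or 6 or WT tumour 1, 13 or 8 (adjusted p = 0.0557 to 0.0955). Gstt3 and Gstt1 had differences of 1.13 and 0.37 log2 with unadjusted p-values of 0.0163 and 0.00942 and did not pass (adjusted p = 0.121 and 0.0904). For Gstt3, WT tumour 1 was lowest at 5.62, the other WT tumours were at 7.00 to 7.73, and KO tumours were at 8.26 to 8.55 apart from tumour 7 at 7.42. Gstt4 lay under the level limit, at a mean of 4.99, with a difference of 0.00.

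Of the other transferase classes none passed, and Gstp3 had the smallest unadjusted p among them (0.0184). The pi-class gene Gstp1, whose product is abundant in many tumours, was at 11.86 to 12.17 log2 in KO and 11.60 to 12.16 in WT tumours (difference 0.06). Gstp3 was at 6.01 to 6.72 in KO and 4.17 to 6.47 in WT, with a difference of 1.02 (adjusted p = 0.129). It passed without WT tumour 3, the highest WT tumour (1.28, adjusted p = 0.0348), and over mouse means (0.99, 0.0475). The alpha-class gene Gsta4, whose enzyme clears lipid aldehydes, differed by −0.18. Gsta3 varied most within WT, from 5.46 in tumour 12 to 10.76 in tumour 1, with KO at 9.15 to 11.28, and its difference of 1.51 ± 0.91 (SE) did not pass (adjusted p = 0.365). Gsto1, Gstk1 and Gstz1, of the omega, kappa and zeta classes, differed by 0.37, −0.31 and −0.11 log2. Gsta2 and Gsto2 lay under the limit by their single-symbol probe sets. A probe set shared by Gsta2, Gsta1 and Gm3776, which was not used, had a mean of 9.46 log2.

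Among 12 tested cytochrome genes, Cyp2j9 alone changed, which is 8.33% against 7.09% of all genes tested. Enzymes of the Cyp2j subfamily oxidise arachidonic acid. Cyp2j9 was at 6.71, 6.78, 6.87, 6.47 and 6.79 log2 in KO tumours 11, 2, 6, 7 and 9 and at 5.69, 6.45, 5.66, 6.21 and 6.20 in WT tumours 1, 12, 13, 3 and 8. KO tumour 7 and WT tumour 12 nearly met, and no tumours overlapped. The difference was 0.67 ± 0.17 log2 (SE, limma adjusted p = 0.0437). It did not pass without KO tumour 11, 2, 6 or 9 or WT tumour 1, 13, 3 or 8 (adjusted p = 0.0531 to 0.121). Its neighbour on chromosome 4, Cyp2j6, had a difference of 0.31 (unadjusted p = 0.0190, adjusted p = 0.132).

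Cyp3a13, a drug-oxidising enzyme of the Cyp3a subfamily, had the largest cytochrome difference among those tested, 1.19 ± 0.47 log2 (SE, adjusted p = 0.167). In KO tumours 11, 2, 6, 7 and 9 it was at 8.43, 6.97, 8.12, 6.44 and 8.40, and in WT tumours 1, 12, 13, 3 and 8 at 5.69, 6.63, 5.79, 6.66 and 7.40. KO tumours 2 and 7 lay within the WT range. Cyp2c68 and Cyp2d26 were likewise lowest among KO tumours in tumour 7, and their differences of 0.87 and 0.84 log2 missed the threshold (adjusted p = 0.143 and 0.288). Without KO tumour 7, Cyp2c68 passed (1.13, adjusted p = 0.0366). Cyp2d34, Cyp4v3, Cyp2s1, Cyp4f39, Cyp4f13 and Cyp4f16 had differences of 0.58, 0.53, 0.47, 0.23, 0.16 and −0.01 log2. Cyp2b10, a target of the receptor Nr1i3 in liver, was at 3.86 to 7.13 in KO and 5.55 to 7.77 in WT (difference −0.84, adjusted p = 0.477). Cyp2s1, an enzyme of epithelia outside the liver, was at 4.36 and 4.59 in WT tumours 13 and 1 and at 7.18 to 7.27 in the other WT tumours, while KO tumours were at 6.02 to 6.97.

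Among the 44 cytochrome genes under the limit were several known from liver. Cyp1a1 and Cyp1a2, classical targets of the aryl hydrocarbon receptor, were at no more than 3.86 and 2.99 in any tumour, and Cyp2e1 was at 3.43 to 4.20. Cyp3a11, the main Cyp3a enzyme of mouse liver, was at 2.21 to 2.81. Background was not assessed, so absence cannot be stated. Of the 62 members under the limit in all families, 57 differed by less than 0.5 log2. The exceptions were Cyp1b1, Cyp4f14, Cyp2d13, Sult1d1 and Cyp4f15, at −1.71, 0.99, 0.65, 0.62 and 0.50 log2. Only Cyp2c38, 1 of the 62, had groups that did not overlap, where 4.36% of all genes under the limit did not. Its difference was −0.25 log2, with KO at 3.60 to 3.84 and WT at 3.86 to 4.14.

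Cyp1b1, which oxidises oestrogens and polycyclic hydrocarbons, had the largest difference of them. It was at 6.06, 6.37, 5.76, 5.81 and 5.05 log2 in WT tumours 1, 12, 13, 3 and 8 and at 4.35, 5.33, 3.68, 3.39 and 3.68 in KO tumours 11, 2, 6, 7 and 9. KO tumour 2 alone reached into the WT range, above WT tumour 8. With no level limit Cyp1b1 passed (−1.71 ± 0.38, SE, limma adjusted p = 0.0266). The other Cyp1b1 probe sets, with means of 3.34 and 3.64, had differences of −0.50 and −0.03. Fibroblast markers (Col1a1, Col1a2, Col3a1, Dcn, Lum, Pdgfra and Pdgfrb) averaged 8.97 to 10.20 in KO and 9.01 to 10.18 in WT tumours. Of the 6 tested, 0 changed and 1 had an unadjusted p under 0.05, against 22.4% of all genes. Their median difference was −0.45 log2. The highest KO tumour for that list was also KO tumour 2. The lowest of each group for it were KO tumour 9 and WT tumour 3, at 3.68 and 5.81 for Cyp1b1. The part of these markers in the result was not tested.

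Glucuronosyltransferases were represented by Ugt2b34 and Ugt2b35 above the limit, neither of which passed. Ugt2b35 was at 8.48, 9.14, 7.82, 7.00 and 8.23 log2 in KO tumours 11, 2, 6, 7 and 9, and at 6.33, 5.05, 7.26, 6.47 and 7.22 in WT tumours 1, 12, 13, 3 and 8. KO tumour 7 was the only KO tumour within the WT range. The difference was 1.63 ± 0.50 (SE, adjusted p = 0.0796), and it passed without KO tumour 7 (1.95, adjusted p = 0.0358). Ugt2b34 was at 12.28 to 12.39 in KO tumours other than tumour 7, which was at 11.74, and at 11.73 to 12.07 in WT tumours other than tumour 12, which was at 10.74. Its difference was 0.53 (adjusted p = 0.263). The 6 others, from Ugt2b38 at a mean of 2.52 to Ugt2b1 at 4.02, differed by −0.41 to 0.12 log2.

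Of 4 tested sulfotransferase genes none passed (limma) and 0 had an unadjusted p under 0.05. Sult1b1, which sulfates phenols and thyroid hormone, was at 7.69 to 9.93 log2 in KO and 6.83 to 9.78 in WT tumours (difference 0.20 ± 0.66, SE). Sult1a1, the phenol sulfotransferase, was highest in KO tumour 6 at 9.06, with the other KO tumours at 6.09 to 7.73 and WT at 6.14 to 7.35 (difference 0.63). Sult4a1 was higher in WT tumours 12 and 3, at 7.84 and 6.87, than in the other WT tumours, at 5.22 to 5.81, and the difference of −0.75 did not pass (adjusted p = 0.390). Sult6b1 differed by −0.05. Among the 9 under the limit, Sult1d1 had a difference of 0.62, with KO at 4.14 to 6.49 and WT at 3.37 to 5.43.

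The tumours of a group were not alike in these genes. KO tumour 7, the only tumour of mouse 99, had the lowest KO signal in 22 of 35 tested members, or 62.9%, whereas it was lowest in 26.0% of all genes tested. Its median deviation from the KO mean was −0.47 log2 over the members and −0.01 over all genes. KO tumour 11 was the highest in 15 of the 35, or 42.9%, against 17.2% of all genes. Among WT tumours, number 12 was lowest in 14 members (40%, against 18.6% of all genes). It was also highest in 9 (25.7%, against 17.1%), and its median deviation over the members was −0.03 log2. The SD was larger in WT than in KO for 23 of 35 members (65.7%, against 56.2% of all genes). These shares are a description, since the 35 genes are not independent.

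**Figure D5:**
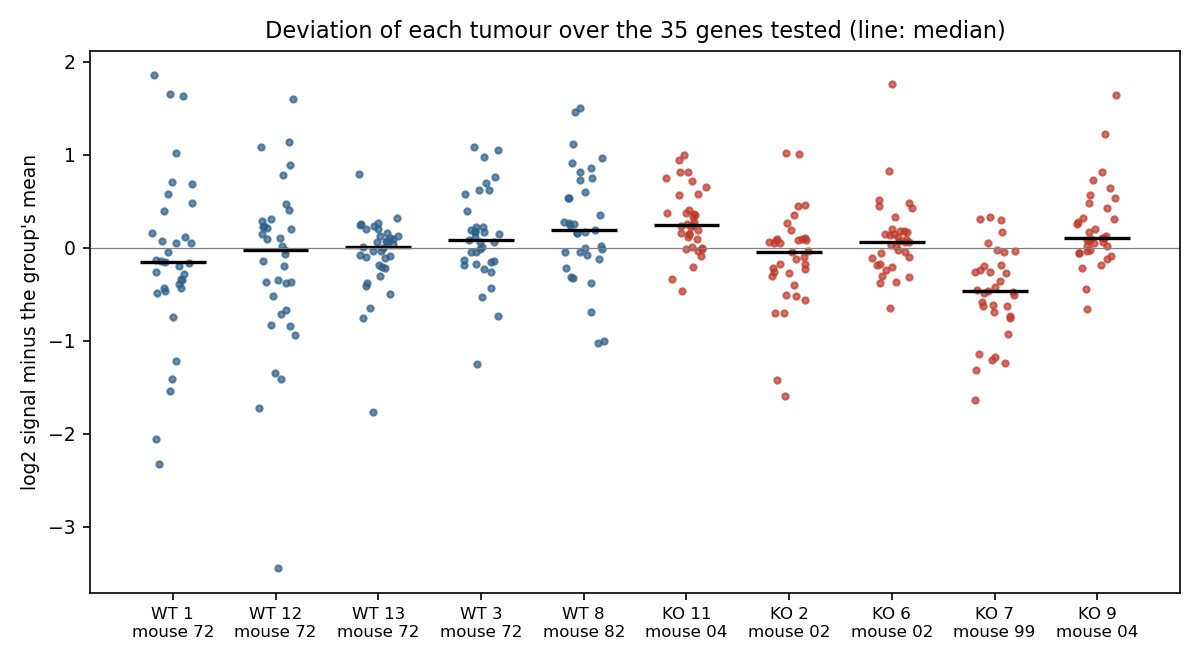
Log2 signal of each of the 35 tested genes minus the mean of its own group, for each WT tumour (blue) and KO tumour (red), with the median as a line. KO tumour 7 has a median of −0.47, and the other medians lie between −0.15 and 0.24.

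Markers of other cell types differed between the same tumours. Goblet cell markers averaged 7.04 log2 in WT tumour 1, 10.26 to 11.51 in the other WT tumours and 10.72 to 11.39 in KO tumours, and none of 7 changed (2 with an unadjusted p under 0.05). Colonocyte markers averaged 6.03 in WT tumour 1, 7.08 to 8.90 in the other WT tumours and 6.67 to 7.76 in KO, with 0 of 5 tested changed and 1 under 0.05 unadjusted. WT tumour 1 was also highest for Gstm7, Gstm6 and Gstm5. Without it Gstm7 had a difference of −2.27 and passed (adjusted p = 0.0281). Gstm6, Gstm3, Gstt2 and Cyp2j9 then had −1.08, 1.30, 0.55 and 0.59 and did not. T and B cell markers averaged 7.71 to 8.28 in KO and 5.64 to 6.55 in WT, and all 4 tested rose, where 4.16% of all genes did. Hepatocyte markers averaged 5.97 to 6.40 in KO and 6.21 to 6.94 in WT, with 0 of 6 tested changed and 3 under 0.05 unadjusted. The median difference of the 6 was −0.07 log2. The part of these markers in the differences was not tested.

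Sample numbers in the labels fall into 191 to 229, with 1 KO and 4 WT tumours, and 254 to 258, with 4 KO and 1 WT tumour. What the numbers stand for is not stated. Differences within the lower and the upper range were −2.63 and −4.17 log2 for Gstm7, −1.67 and −2.18 for Gstm6, 1.09 and 1.70 for Gstm3, 0.28 and 0.83 for Gstt2, and 0.34 and 1.09 for Cyp2j9. Each range has a group of 1 tumour, KO tumour 7 in the lower and WT tumour 1 in the upper, whose spread had to be taken from the other group. With the range as a covariate Gstm7 and Gstm6 passed, at −3.49 and −1.95 (adjusted p = 0.00987 and 0.00472). Gstm5 (−2.07, 0.00828) and Gstp3 (1.56, 0.0401) passed as well, while Gstm3, Gstt2 and Cyp2j9 did not (adjusted p = 0.0792, 0.102 and 0.0966). Over means of 3 KO and 2 WT mice, Gstm7 passed (−2.90, adjusted p = 0.0169), and Gstm6, Gstm3, Gstt2 and Cyp2j9 did not (0.0775, 0.0515, 0.140 and 0.136). With the 3′ minus 5′ covariate Gstm6, Gstm3, Gstt2 and Cyp2j9 had differences of −1.33, 1.21, 0.57 and 0.65 and did not pass either (0.0910, 0.0673, 0.0778 and 0.101).

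Genes that work with these enzymes were taken from 6 lists. Among glutathione and Nrf2 target genes, 3 of 13 tested rose and none fell, where 4.16% of all genes rose and 2.93% fell. The median difference was 0.32 log2, and 5 of the 13 had an unadjusted p under 0.05, against 22.4% of all genes. The 3 that rose were Gpx1, Gpx2 and Gclm. Gpx1 and Gpx2 are glutathione peroxidases, of which Gpx2 is typical of gut epithelium. Gclm is a subunit of the enzyme that starts glutathione synthesis. Gpx2 was at 12.42, 12.22, 12.30, 12.69 and 12.38 log2 in KO tumours 11, 2, 6, 7 and 9, and at 10.84, 11.74, 11.45, 11.95 and 11.02 in WT tumours 1, 12, 13, 3 and 8. The groups did not overlap, and KO tumour 7 was here the highest. Gpx2 rose by 1.02, Gpx1 by 0.58 and Gclm by 0.57 log2 (limma adjusted p = 0.0208, 0.0130 and 0.0266). Gpx2 did not pass without KO tumour 6, nor Gclm without KO tumour 6 or WT tumour 1, 13 or 8 (adjusted p = 0.0511 to 0.0655), whereas Gpx1 passed whichever single tumour was left out. Over mouse means Gpx2 passed (1.19, 0.0473), and Gpx1 and Gclm did not (0.60 and 0.62, 0.0692 and 0.0745). With the 3′ minus 5′ covariate Gpx1 passed (0.52, 0.0261), and Gpx2 and Gclm did not (0.95 and 0.55, 0.0521 and 0.0654). Gpx2 also did not pass without mouse 02 or mouse 04 (0.0547 and 0.0729), nor Gpx1 without mouse 04 (0.0538).

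Among other enzymes of the same steps, 4 of 22 tested rose and none fell, against 4.16% and 2.93% of all genes. The median difference was 0.43 log2, and 9 of the 22 had an unadjusted p under 0.05, against 22.4% of all genes. Adh1, an alcohol dehydrogenase, rose by 2.46, the xanthine oxidising enzyme gene Xdh by 1.54, the carboxylesterase gene Ces2a by 1.21 and the soluble epoxide hydrolase gene Ephx2 by 0.89 (limma adjusted p = 0.0471, 0.0334, 0.0376 and 0.0410). In each the groups overlapped. Adh1 did not pass without KO tumour 11, 6 or 9 or any single WT tumour other than 8, nor Xdh without KO tumour 11 or 7 or WT tumour 1, 13 or 3. Ces2a did not pass without KO tumour 11, 2 or 6 or WT tumour 1, 13 or 8. Of the single-tumour omissions, Ephx2 passed only those of KO tumour 7 and WT tumour 8. None of the 4 passed over mouse means, with differences of 1.67 for Adh1, 1.24 for Xdh, 1.15 for Ces2a and 0.70 for Ephx2 (adjusted p = 0.312, 0.263, 0.0894 and 0.329). With the 3′ minus 5′ covariate the differences were 2.48, 1.46, 1.12 and 0.96, and none passed (0.0928, 0.0813, 0.0915 and 0.0562). Xdh alone passed once the number range was a covariate (1.84, 0.0394). Without mouse 72, which leaves 1 WT tumour, Adh1 and Xdh differed by 0.60 and 0.56.

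Of the receptors and regulators 0 of 12 tested passed (limma), and 4 had an unadjusted p under 0.05, against 22.4% of all genes. The 14 measured averaged 8.36 to 8.37 log2 in KO and 7.91 to 8.32 in WT tumours. This average mixes genes that differed in opposite directions, and no background was set for it. Nr1i2, the pregnane X receptor, which induces Cyp3a and Cyp2c genes, was at 7.53 to 8.02 log2 in KO and 6.12 to 7.71 in WT (difference 0.83, adjusted p = 0.126). Ahr, the aryl hydrocarbon receptor, and Nfe2l2, which encodes Nrf2, had differences of −0.45 and −0.39 (adjusted p = 0.277 and 0.161). Nr1i3 lay under the limit, at a mean of 4.51, and Por, the electron donor of the cytochromes, had no single-symbol probe set. Electron donors, cofactor supply genes and transporters had no member past the threshold among 4, 7 and 10 tested, with 0, 2 and 3 at an unadjusted p under 0.05. Median differences of the 4 lists without a gene past the threshold were 0.23, −0.06, 0.14 and −0.45 log2.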

How the data were processed

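The 10 tumour arrays were compared, 5 KO and 5 WT. The deposited values are log2 signals of 45101 probe sets that the authors made by RMA, per the submitters' processing notes; versions are not given in the sources used here. RNA from 14 µm sections was amplified from 30 ng before hybridisation, per the labels' protocols. Of the probe sets, 34945 have 1 gene symbol and 932 several, and the latter were not used. Each gene was represented by its probe set with the highest mean, and the 12250 genes at or above the 40th percentile were tested. Differences, KO minus WT, came from limma 3.58.1 (R 4.3.3, statmod 1.5.0), in which mouse was a random block (correlation 0.059), and can differ slightly from differences of group means. Adjustment followed Benjamini and Hochberg, over all genes tested. Tumours of few mice are not independent animals, and p-values measure the spread between these tumours. The fit was tested on simulated data. Array medians were 6.43 to 6.50 log2, and the number of arrays limits precision. The genes named are members that passed, that differed by at least 1 log2, or that had the highest signal or smallest p of a family or subfamily, with the other tested members added; members under the limit go by counts, ranges and examples chosen after their values were seen. Listed genes are named if they passed, with Ahr, Nr1i2, Nr1i3, Nfe2l2 and Por. Members and lists were chosen with earlier results of these data known. The alternatives tried are other blocks, filters, probe choices, scalings, covariates and the omission of each tumour and mouse.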

Additional observations from a re-analysis of the deposited data

Results flagged for a closer look

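In 7 of 84 groups of 5 tumours, over the 42 genes examined, 1 tumour lay apart from the others by a gap of more than 0.71 of the group's range, which chance gives in about 1 in 20 groups. KO tumour 7 was the low one for 3 genes. Its gap was 0.836 of the range for Ugt2b34 (11.74 log2, others 12.28 to 12.39), 0.749 for Gstm4 (6.11, others 6.65 to 6.84) and 0.743 for Gstt3 (7.42, others 8.26 to 8.55). WT tumour 12 was the low one for Ugt2b34, with a gap of 0.746 (10.74, others 11.73 to 12.07), and for Gstm1, with a gap of 0.738 (8.65, others 10.14 to 10.67). WT tumour 8 was low for Cyp4f16, with a gap of 0.896 (9.13, others 9.58 to 9.63). For Gclm, KO tumour 9 was high, with a gap of 0.742 (9.58, others 9.34 to 9.40).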

How the results depend on the processing

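Of the members, 3 were called higher and 2 lower. With 1 tumour left out, 0 to 5 were called higher and 0 to 3 lower. The counts higher and lower were 1 and 1 over mouse means, 1 and 3 when the number range was a covariate, 0 and 0 in the lower range alone, 4 and 4 in the upper range alone, 1 and 1 with a filter at the 60th percentile (18 members tested), and 0 and 0 with the 3′ minus 5′ difference as a covariate. Leaving out mouse 02 gave 1 and 0, mouse 04 gave 0 and 2, and mouse 72 gave 0 and 1. They were 1 and 2 for changes of at least 2-fold. Over all genes 509 and 359 were called, against 195 and 193 over mouse means and 12 and 18 in the lower range. The fits of 1 number range, and the one without mouse 72, leave 1 tumour in a group. It is KO tumour 7 in the lower range, WT tumour 1 in the upper range and WT tumour 8 without mouse 72. This tumour is assumed to vary like the others, and its own traits cannot be told apart from those of the range or mouse. The cause of these changes was not tested. No paired analysis was possible because each mouse belonged to 1 group only.

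No called member changed direction under the alternatives run. Uncalled members did, in log2. In the lower range alone the differences were −0.014 for Cyp2c68, −0.38 for Cyp2d26, −0.32 for Cyp2d34, −0.46 for Cyp2s1, −0.15 for Cyp3a13, −0.27 for Cyp4f13, −0.20 for Gstm4, −0.31 for Gsto1, −0.60 for Sult1a1, −0.89 for Sult1b1 and 0.13 for Sult6b1. In the upper range alone they were −0.040 for Cyp4v3, 0.25 for Gsta4, 0.016 for Gstk1, 0.025 for Gstm2, −0.20 for Gstm4 and −0.10 for Gstp1. With the range as a covariate they were −0.064 for Cyp4f13, 0.0094 for Gstk1, −0.21 for Gstm4 and −0.010 for Gstp1. Over mouse means they were −0.0051 for Cyp2s1, 0.094 for Cyp4f16, 0.079 for Gstk1, −0.19 for Sult1b1 and 0.070 for Sult6b1. Without mouse 72 they were −0.075 for Cyp2d26, −0.84 for Cyp2d34, −0.62 for Cyp2s1, −0.011 for Cyp4f13, 0.35 for Cyp4f16, 0.67 for Gstk1, 0.0092 for Gstz1, −0.11 for Sult1a1, −0.65 for Sult1b1, 0.25 for Sult4a1 and 0.27 for Sult6b1. Without mouse 04 they were −0.078 for Cyp2d34, −0.037 for Cyp4f13 and −0.26 for Sult1b1. Cyp4f16 was at 0.0097 with arrays centred on the median and 0.036 over the mean of its probe sets, and Sult1b1 at −0.089 with the 3′ minus 5′ covariate. With single tumours left out, Cyp4f16 ran from −0.11 to 0.034, Gstp1 from −0.032 to 0.11, Sult1b1 from −0.31 to 0.56 and Sult6b1 from −0.14 to 0.095.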
